A study of Mus musculus with 6 samples.

Results

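The genes described are 39 mouse genes of apoptosis and death receptor signalling, out of 24445 genes in the count table. They were chosen by name in 9 classes, from pro-survival BCL-2 proteins and caspases to inhibitors of apoptosis proteins (IAPs) and death receptors. All 39 had a row in the table, and 37 had enough counts to be tested; Bcl2a1d and Hrk had not. RNA came from BMDMs, macrophages grown from bone marrow precursors in L929-conditioned medium for 7 days. The mice were female C57Bl/6J animals whose Acly gene, encoding the enzyme that makes cytosolic acetyl-CoA from citrate, carries loxP sites around exon 9. Mice of the AclyM-KO group (3 libraries) also carry Lyz2-Cre, which cuts the gene in myeloid cells, and the floxed Ctrl group (3 libraries, labelled WT) does not. The cells of all 6 libraries received IL-4, the cytokine of alternative macrophage activation, at 100 U/mL for 24 h. The age of the mice is not given in the sources used here. The libraries are described both as biological replicates and as technical replicates from 3 pooled mice. The p-values therefore measure the spread between libraries only, which may hold no spread between mice.

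Apoptosis is carried out by caspases, proteases that lie idle until they are clustered or cut. In the mitochondrial route, BH3-only proteins sense damage, pro-survival BCL-2 proteins hold them in check, and the effectors BAX and BAK open the outer mitochondrial membrane, which releases cytochrome c to assemble APAF1 and caspase-9 into the apoptosome. In the receptor route, members of the TNF receptor superfamily recruit FADD or TRADD, RIPK1 and caspase-8, and IAPs, c-FLIP and the necroptosis proteins RIPK3 and MLKL decide between survival, apoptosis and lytic death. Macrophages are known both as a main source of TNF and as carriers of its receptors.

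The libraries held 12151975 to 14739689 counts in Ctrl and 14745614 to 15587283 in AclyM-KO. Acly, the targeted gene, was counted 4917, 3925 and 4606 times in Ctrl and 2140, 2078 and 1978 times in AclyM-KO. Its level was 41.4% of Ctrl (log2 fold change of -1.27, SE 0.0533, edgeR quasi-likelihood adjusted p = 5.22e-10), and the count covers the whole transcript, not the deleted exon alone. All 7 macrophage markers were detected, with a summed level of 13400 to 14700 CPM (counts per 1000000 of the TMM-scaled library size) in Ctrl and 11100 to 11500 CPM in AclyM-KO, and 1 of them (Adgre1) rose and 4 (Lyz2, Mertk, Itgam and Csf1r) fell. Most of the difference in the sum came from Lyz2, with a mean of 6600 CPM in Ctrl and 4140 CPM in AclyM-KO. Lyz2 is the gene that drives Cre, and only AclyM-KO carries Lyz2-Cre, so its fall cannot be told apart from the presence of that allele. Neutrophil markers summed to 7.59 to 9.46 CPM in Ctrl and 13.7 to 14.3 CPM in AclyM-KO through S100a8 and S100a9, while the defining Ly6g stood at 0 in 5 of 6 libraries. Markers of dendritic cells summed to at most 3.76 CPM, of fibroblasts to at most 1.3 CPM, of lymphocytes to at most 0.676 CPM, of mast cells or basophils to at most 0.736 CPM and of erythroid cells to at most 1.02 CPM. These shifts run alongside every result below, and their part in the results was not tested. In bulk RNA, fewer cells of a type and less RNA per cell cannot be told apart.

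AclyM-KO macrophages differed from Ctrl by mostly small changes, in both directions, across the death machinery. Of the 37 members tested, 4 were higher in AclyM-KO (Bok, Bcl2, Xiap and Bax) and 7 were lower (Bmf, Birc3, Casp6, Casp8, Casp2, Apaf1 and Tnfrsf1a) at an edgeR adjusted p under 0.05, a threshold applied over all 12023 genes tested. That is 29.7% of the members, where 24.9% of all genes tested were called (12.4% higher and 12.6% lower). Only 2 of the members called, Bok and Bmf, also passed a log2 fold change of 0.58 in either direction, a limit that 5.55% of all genes tested passed. The median log2 fold change (AclyM-KO minus Ctrl) of the members was -0.081, beside 0.001 over all genes, and their median size regardless of sign was 0.106, beside 0.152. By sign alone, 11 members lay above 0 and 26 below, beside 6043 above and 5980 below over all genes tested. The CPM ranges of the 3 Ctrl and 3 AclyM-KO libraries did not overlap for 15 members (40.5%), where 40.2% of all genes tested did not overlap. The share of members called and the share without overlap were therefore near those of all genes.

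**Figure D1:**
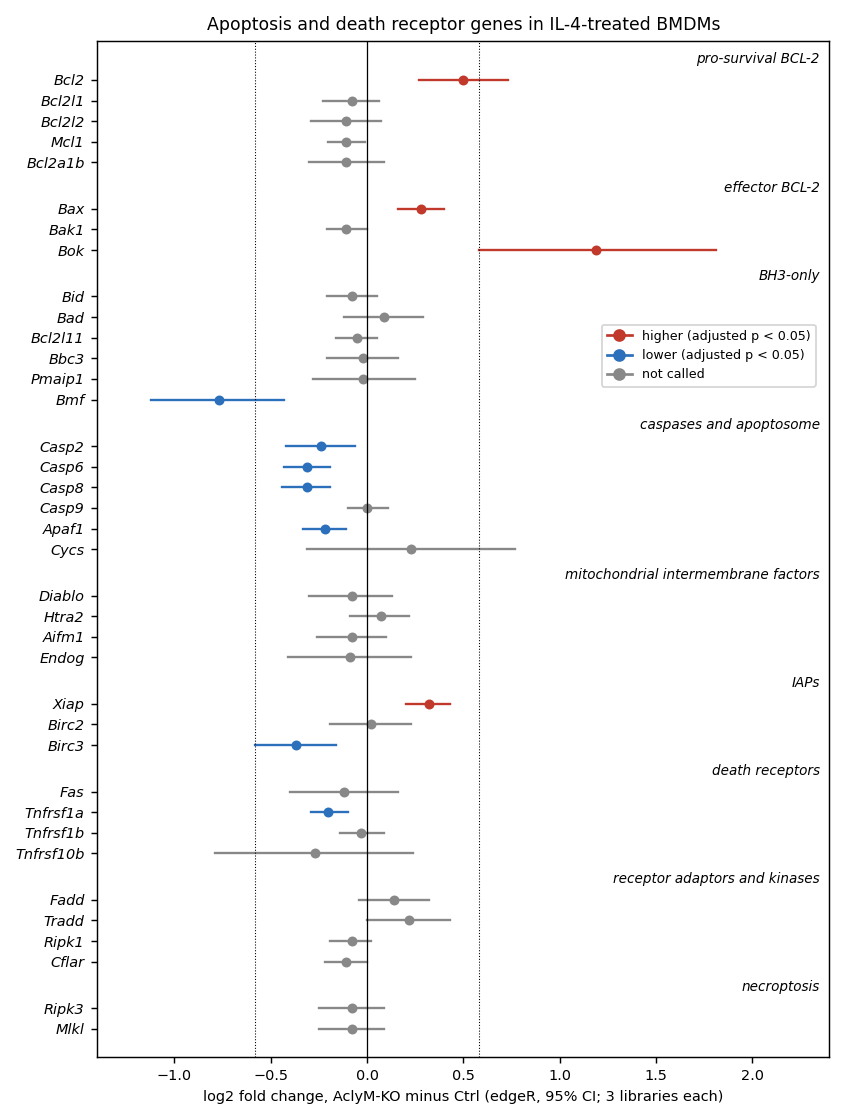
Log2 fold change (AclyM-KO minus Ctrl, x axis) of the 37 members tested, grouped by class, with 95% confidence intervals from edgeR over 3 libraries in each group; dotted lines mark 0.58 in either direction. Bok (1.19) and Bmf (-0.77) lie past the dotted lines, the other 9 called members lie between -0.37 and 0.50, and most members in grey have intervals that include 0.

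Among the effectors that open the mitochondrial membrane, 2 of 3 rose (66.7% called, beside 24.9% of all genes tested), and they differed widely in level. Bok encodes a BAX-like effector that acts without the usual BCL-2 restraint. It was counted 14, 10 and 19 times in Ctrl and 31, 38 and 41 times in AclyM-KO, or 0.946, 0.818 and 1.44 CPM against 2.11, 2.44 and 2.81 CPM. Every AclyM-KO library lay above every Ctrl library, though all 6 values rest on at most 41 counts. The increase was the largest of any member (2.29-fold, log2 fold change of 1.19, SE 0.289, edgeR adjusted p = 0.00701). Bax, the classical effector, stood at 80.2, 68.8 and 75.5 CPM in Ctrl and at 88.3, 92.1 and 92.4 CPM in AclyM-KO. Its groups did not overlap either, and the rise was 1.21-fold (log2 fold change of 0.28, SE 0.0584, adjusted p = 0.00257). Bak1, which encodes the partner effector BAK, stood at 162, 168 and 161 CPM in Ctrl and at 151, 147 and 157 CPM in AclyM-KO. Every AclyM-KO library lay below every Ctrl library, but the difference missed the threshold (log2 fold change of -0.11, adjusted p = 0.133). Other genes cover 25.7% of the exonic bases of Bak1 on the opposite strand, which the counting may not have told apart. On the same strand, 22.1% of those of Bax are covered, so both counts are uncertain to that extent.

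The ratio of Bax to Bak1 counts within a library needs no scaling between libraries. It was 0.496, 0.41 and 0.47 in Ctrl and 0.586, 0.625 and 0.588 in AclyM-KO, so the groups were separate on this measure too. This pair, like the other ratios below, was picked after the values were seen, and the ratios are a description with no test.

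The BH3-only genes, whose products trigger BAX and BAK, had 1 change among 6 tested (16.7% called, beside 24.9% of all genes tested). Bmf, which encodes a BH3-only protein held at the cytoskeleton until stress frees it, stood at 6.42, 7.2 and 7.29 CPM in Ctrl and 4.09, 3.54 and 4.59 CPM in AclyM-KO. All AclyM-KO libraries lay below all Ctrl libraries, and the level fell to 58.6% of Ctrl (log2 fold change of -0.77, SE 0.162, adjusted p = 0.00269). The 4 transcript rows of Bmf moved alike, with log2 fold changes of -0.77, -0.77, -0.77 and -0.70. The 5 other BH3-only genes tested lay between -0.08 and 0.09 on the log2 fold change scale with no call. Bcl2l11, encoding BIM, the main BH3-only killer of blood cells, stood at 216 to 227 CPM in Ctrl and 207 to 221 CPM in AclyM-KO (log2 fold change of -0.05, 95% confidence interval -0.16 to 0.05). Bid, which links caspase-8 to mitochondria, had a log2 fold change of -0.08 and Bad, a BH3-only protein controlled by phosphorylation, of 0.09. For the p53 targets Bbc3 (PUMA) and Pmaip1 (NOXA), both values were -0.02. Hrk, a BH3-only gene known from neurons, had 0 counts in all libraries, which allows up to 3 counts in a library, or 0.193 to 0.245 CPM, by counting error alone.

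Bok and Bmf, the members with the largest change in each direction, and Bax and Casp6, as called members whose window holds a motif searched for, are shown with the 250 bases upstream of their annotated start (RefSeq, GRCm38.p6, read 5′ to 3′ on the strand of the gene; RefSeq and GENCODE starts can differ). Bok lies on chromosome 1 from 93685660 to 93695764 (plus strand, window chr1:93685325-93685574), and Bmf on chromosome 2 from 118528757 to 118549687 (minus strand, window chr2:118549687-118549936). Bax lies on chromosome 7 from 45461697 to 45466898 (minus strand, window chr7:45466899-45467148), and Casp6 on chromosome 3 from 129901425 to 129914103 (plus strand, window chr3:129901165-129901414). Capitals mark ACGTG, the core of the hypoxia response element, on either strand; in Bax it stands on both strands of 1 palindrome, which is also the E-box CACGTG.
Bok: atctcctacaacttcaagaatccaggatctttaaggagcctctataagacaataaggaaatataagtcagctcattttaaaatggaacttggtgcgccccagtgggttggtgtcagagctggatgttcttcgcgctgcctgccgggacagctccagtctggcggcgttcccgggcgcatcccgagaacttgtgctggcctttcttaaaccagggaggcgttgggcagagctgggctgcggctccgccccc
Bmf: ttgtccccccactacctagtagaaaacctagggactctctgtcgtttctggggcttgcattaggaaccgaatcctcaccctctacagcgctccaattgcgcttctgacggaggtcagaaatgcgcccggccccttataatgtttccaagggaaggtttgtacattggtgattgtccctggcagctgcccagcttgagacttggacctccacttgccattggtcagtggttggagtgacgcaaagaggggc
Bax: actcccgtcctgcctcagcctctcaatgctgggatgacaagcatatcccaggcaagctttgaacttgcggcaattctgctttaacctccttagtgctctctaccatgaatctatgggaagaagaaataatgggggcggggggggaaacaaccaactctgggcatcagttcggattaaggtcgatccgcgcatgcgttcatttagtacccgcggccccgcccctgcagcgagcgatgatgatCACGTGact
Casp6: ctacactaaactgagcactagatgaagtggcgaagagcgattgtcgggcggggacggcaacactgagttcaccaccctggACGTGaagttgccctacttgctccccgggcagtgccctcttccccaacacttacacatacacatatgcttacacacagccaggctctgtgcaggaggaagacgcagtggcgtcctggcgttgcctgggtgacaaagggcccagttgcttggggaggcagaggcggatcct
Both strands of all RefSeq promoter windows were searched for ACGTG and for TTCNNNNGAA, the form of STAT element that the IL-4 factor STAT6 binds. ACGTG was present in 10 of 47 windows of the 35 members that could be matched, and in 16.6% of all 32851 windows; called members with it were Apaf1, Bax, Casp6 and Xiap. TTCNNNNGAA was present in 2 of the 47 windows, those of Fadd and Ripk1, and in 5.85% of all windows. Such a match of letters is a description and not a binding site.

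Of the pro-survival genes, which bind and hold BH3-only proteins and effectors, 1 of 5 tested rose (20% called, beside 24.9% of all genes tested). Bcl2, the founding member, stood at 28.1, 38.2 and 28.3 CPM in Ctrl and at 48.8, 45.4 and 38.8 CPM in AclyM-KO. The highest Ctrl library, replicate 2, came close to the lowest AclyM-KO library, replicate 3, yet the groups did not overlap. The level was 1.41-fold higher (log2 fold change of 0.50, SE 0.108, adjusted p = 0.00336). Both transcript rows of Bcl2 rose when each was fitted alone, by 0.50 on the row kept and by 0.74 on the other row (adjusted p = 0.00515), which holds 18.63% as many counts.

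Mcl1, which encodes a short-lived pro-survival protein, had a log2 fold change of -0.11 (722, 651 and 718 CPM in Ctrl against 654, 642 and 648 CPM in AclyM-KO, adjusted p = 0.109). Without Ctrl replicate 2, its lowest Ctrl library, it passed the threshold at -0.16 (adjusted p = 0.00191). Bcl2l1, encoding BCL-XL, and Bcl2l2, encoding BCL-W, had log2 fold changes of -0.08 and -0.11, with intervals of -0.23 to 0.06 and -0.29 to 0.07. The ratio of Bcl2 to Mcl1 counts was 0.0389, 0.0587 and 0.0394 in Ctrl and 0.0746, 0.0707 and 0.0598 in AclyM-KO. The groups were separate on this ratio, if barely.

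Bcl2a1b and Bcl2a1d are near-identical copies of the gene for A1, a pro-survival protein induced by NF-kB in myeloid cells. Bcl2a1b stood at 28 to 35.1 CPM in Ctrl and 27.6 to 32.4 CPM in AclyM-KO (log2 fold change of -0.11, adjusted p = 0.427), whereas Bcl2a1d had only 6 to 14 counts in a library. Their coding sequences are 98.8% identical, with 6 differing bases in 516 and an identical run of 217 bases, and a read from such a run cannot be placed on 1 copy. How reads with several positions were counted is not given in the sources used here, so the split of counts between the copies is uncertain. Another gene on the same strand also covers 49.1% of the exonic bases of Bcl2a1b. The first 150 bases of the coding sequences (GRCm38, GENCODE M21 positions) show how few bases tell them apart, with the differing bases in capitals.
Bcl2a1b: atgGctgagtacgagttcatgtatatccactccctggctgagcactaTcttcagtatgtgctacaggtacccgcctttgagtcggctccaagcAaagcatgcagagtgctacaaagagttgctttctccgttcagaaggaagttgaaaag
Bcl2a1d: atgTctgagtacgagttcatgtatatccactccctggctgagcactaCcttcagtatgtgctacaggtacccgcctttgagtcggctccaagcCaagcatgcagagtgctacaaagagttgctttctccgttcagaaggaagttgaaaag

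The caspases and the apoptosome held the most decreases of any class, with 4 of 6 members lower and a median log2 fold change of -0.233. That is 66.7% called in this small class, beside 24.9% of all genes tested. Casp8, the initiator caspase of the death receptors, stood at 77.1, 73.1 and 76.1 CPM in Ctrl and at 56.1, 64 and 62.4 CPM in AclyM-KO. Even the highest AclyM-KO library lay below the lowest Ctrl library, and the level fell to 80.6% of Ctrl (log2 fold change of -0.31, SE 0.0585, adjusted p = 0.00118). Casp6, an executioner caspase best known for cutting nuclear lamins, stood at 54, 52.9 and 53.4 CPM in Ctrl and at 42.3, 42.8 and 43.9 CPM in AclyM-KO. The groups did not overlap (80.4% of Ctrl, log2 fold change of -0.31, SE 0.0561, adjusted p = 0.000778). At 620 to 799 counts in a library, the close values within a group differ by less than counting error would give, so they understate the spread.

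Apaf1, the scaffold of the apoptosome, stood at 97.4, 91.2 and 88.8 CPM in Ctrl and at 80.2, 77.5 and 80.2 CPM in AclyM-KO. It was lower in all AclyM-KO libraries, at 85.7% of Ctrl (log2 fold change of -0.22, SE 0.0522, adjusted p = 0.00571). Casp2, an initiator caspase linked to genotoxic stress, stood at 23.8, 24.9 and 23.1 CPM in Ctrl and at 22, 19.4 and 19.3 CPM in AclyM-KO. The groups did not overlap, but this was the call closest to the threshold (log2 fold change of -0.24, SE 0.0845, adjusted p = 0.0455). It was lost with DESeq2 (adjusted p = 0.105), with the replicate number as a block (0.0634) and on leaving out any Ctrl library or AclyM-KO replicate 2 or 3 (0.0581 to 0.154).

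Casp9, the initiator caspase that APAF1 activates, stood at 98.8, 104 and 102 CPM in Ctrl and 102, 101 and 104 CPM in AclyM-KO (log2 fold change of 0.00, 95% confidence interval -0.10 to 0.11). The ratio of Casp8 to Casp9 counts was 0.78, 0.703 and 0.744 in Ctrl and 0.55, 0.637 and 0.602 in AclyM-KO, without overlap between the groups. Cycs, encoding cytochrome c, had only 25 to 45 counts in a library and a wide interval (log2 fold change of 0.23, 95% confidence interval -0.31 to 0.77). The annotation names 2 pseudogenes after it, Cycs-ps2 and Cycs-ps3, and its count is uncertain for the same reason as that of the Bcl2a1 copies.

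**Figure D2:**
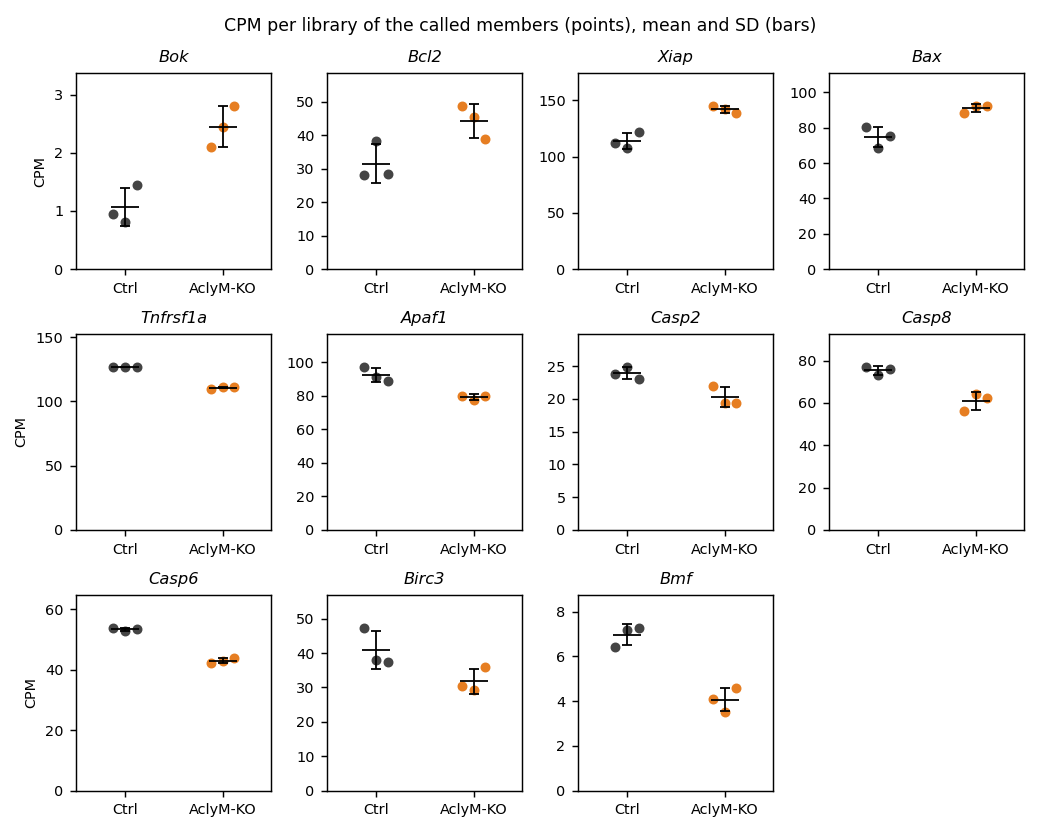
CPM (y axes, starting at 0) of the 11 called members in each library (points), with the mean and SD of the 3 libraries of a group (bars). Bok, Bcl2, Xiap and Bax are higher and the other 7 lower in AclyM-KO, and in no panel do the points of the groups overlap; the gap is narrowest, relative to the level, in Bcl2.

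None of the 4 mitochondrial factors that leave the intermembrane space with cytochrome c passed the threshold in edgeR, DESeq2 or limma-voom. In edgeR, 24.9% of all genes tested passed it. An unadjusted p under 0.05 was seen in 0 of 4, beside 4416 of all 12023 genes tested (edgeR). Diablo, which encodes the IAP antagonist SMAC, had a log2 fold change of -0.08, and Htra2, a protease that also binds IAPs, of 0.07. Aifm1 and Endog, whose products act on nuclear DNA without caspases, lay at -0.08 and -0.09. The widest of their intervals was that of Endog (-0.41 to 0.23). Genes on the opposite strand cover 35.7% of the exonic bases of Endog, 34.0% of Htra2 and 35.6% of the BH3-only gene Bad, and a gene on the same strand covers 75.7% of Diablo, which makes these counts uncertain.

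Of the 3 IAPs, which block caspases or tag receptor complexes with ubiquitin, 1 rose and 1 fell. That is 66.7% called in this small class, beside 24.9% of all genes tested. Xiap, the direct inhibitor of executioner caspases and caspase-9, stood at 112, 108 and 122 CPM in Ctrl and at 145, 142 and 139 CPM in AclyM-KO. All AclyM-KO libraries were above all Ctrl libraries (1.24-fold, log2 fold change of 0.32, SE 0.0531), and its adjusted p of 0.000465 in edgeR was the smallest of any member. Birc3, encoding the NF-kB-induced cIAP2, stood at 47.4, 38 and 37.3 CPM in Ctrl and at 30.3, 29.3 and 36 CPM in AclyM-KO. The gap between the groups was narrow, with the highest AclyM-KO library, replicate 3, just under the lowest Ctrl library. The level fell to 77.6% of Ctrl (log2 fold change of -0.37, SE 0.098, adjusted p = 0.0127). The call for Birc3 was lost without Ctrl replicate 1 (log2 fold change of -0.24, adjusted p = 0.0653), AclyM-KO replicate 1 (-0.33, 0.0576) or AclyM-KO replicate 2 (-0.31, 0.0796). Birc2, which encodes its neighbour and relative cIAP1, lay at 0.02 (95% confidence interval -0.19 to 0.23). The ratio of Xiap to Birc3 counts was 2.37, 2.85 and 3.26 in Ctrl and 4.78, 4.85 and 3.87 in AclyM-KO.

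Of the 4 death receptors, 1 fell (25% called, beside 24.9% of all genes tested), and all 4 estimates lay below 0. Tnfrsf1a, which encodes TNFR1, the TNF receptor with a death domain, stood at 127 CPM in each Ctrl library and at 110, 111 and 111 CPM in the AclyM-KO libraries. Tnfrsf1a fell to 87.3% of Ctrl (log2 fold change of -0.20, SE 0.0464, edgeR adjusted p = 0.00617). The SD within a group was 0.29 CPM in Ctrl and 0.361 CPM in AclyM-KO. At 1547 to 1881 counts in a library, counting error alone is larger than such an SD, which therefore understates the spread. Tnfrsf1b, encoding TNFR2, which lacks a death domain, stood at 618, 548 and 601 CPM in Ctrl and at 549, 575 and 610 CPM in AclyM-KO, with overlapping groups and a log2 fold change of -0.03 (95% confidence interval -0.14 to 0.09). The ratio of Tnfrsf1a to Tnfrsf1b counts was 0.205, 0.231 and 0.211 in Ctrl and 0.201, 0.193 and 0.181 in AclyM-KO. These ranges were separate by a small margin. Fas had a log2 fold change of -0.12 (95% confidence interval -0.40 to 0.16) at 7.27 to 8.51 CPM, and Tnfrsf10b, the mouse TRAIL receptor, of -0.27 (-0.79 to 0.24) at 1.92 to 3.27 CPM. Both receptors had few counts, and both intervals are wide.

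The adaptors and kinases that the receptors recruit had no call among 4 in edgeR, DESeq2 or limma-voom, where edgeR called 24.9% of all genes tested. In edgeR, 1 of the 4 (Tradd) had an unadjusted p under 0.05, beside 4416 of all 12023 genes tested. Fadd, the adaptor that brings in caspase-8, had a log2 fold change of 0.14 (adjusted p = 0.238). Tradd, the adaptor of TNFR1, stood at 14.9, 12.4 and 14 CPM in Ctrl and 15.7, 16.6 and 15.9 CPM in AclyM-KO, without overlap but also without a call (log2 fold change of 0.22, adjusted p = 0.129). Ripk1, the kinase at the branch between survival and death, had a log2 fold change of -0.08 (adjusted p = 0.237) and Cflar, which encodes c-FLIP, the caspase-8 homologue that restrains it, one of -0.11 (adjusted p = 0.145). Ripk1 stood at 158, 150 and 149 CPM in Ctrl and at 148, 141 and 143 CPM in AclyM-KO, and Cflar at 135, 135 and 124 CPM against 121, 123 and 121 CPM. In both genes every AclyM-KO library lay below every Ctrl library. The ratio of Casp8 to Cflar counts was 0.57, 0.543 and 0.616 in Ctrl and 0.464, 0.519 and 0.513 in AclyM-KO, again without overlap.

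Ripk3 and Mlkl, the kinase and the pore-forming protein of necroptosis, both had a log2 fold change of -0.08 with no call by any of these tools (adjusted p of 0.505 and 0.497 in edgeR). An unadjusted p under 0.05 in edgeR was seen in 0 of 2, beside 4416 of all 12023 genes tested, of which 24.9% were called. Over all 26 members without a call, log2 fold changes ran from -0.27 to 0.23. The 95% confidence interval lay inside 0.58 in either direction for 24 of them, and reached past it for Cycs and Tnfrsf10b. A missed threshold does not show that these genes were equal.

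Reads common to several isoforms were counted on each of them, and the transcript rows of a member show whether 1 row decided its call. When each of 19784 rows was fitted alone, the rows of Xiap gave log2 fold changes of 0.32, those of Casp8 of -0.31 and those of Apaf1 of -0.22, and all were called. These rows share most of their reads and are not independent of each other. Some members have rows that hold few of the reads. The row of Bcl2l11 with the fewest counts held 9.41% as many counts as the row kept (300, 231 and 276 in Ctrl against 305, 332 and 305 in AclyM-KO) and gave 0.07 (adjusted p = 0.555), where the row kept gave -0.05. A row of Cflar with 3.06% as many counts as the row kept gave -0.12 (adjusted p = 0.743), and one of Fas with 8.89% gave -0.10 (adjusted p = 0.893). At 7 to 16 counts in a library, the row of Fas is too sparse for a comparison of its isoforms.

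Several members lie side by side in the genome (positions on GRCm38 from GENCODE M21). Cflar (58711508 to 58758884) and Casp8 (58795374 to 58847503) are neighbours on the plus strand of chromosome 1, and of this related pair only Casp8 was called. Birc2 (7818227 to 7837064) and Birc3 (7848699 to 7873186) are neighbours on the minus strand of chromosome 9, and only Birc3 was called; no difference within either pair was tested. The other called members are spread out, with Bcl2 at 106538178 to 106714274 on chromosome 1, Xiap at 42059679 to 42109656 on chromosome X and Apaf1 at 90989311 to 91082770 on chromosome 10. Tnfrsf1a (125349362 to 125362484) and Casp2 (42264985 to 42282508) lie far apart on chromosome 6.

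Levels can be compared between genes per length of transcript. By CPM per kilobase in Ctrl, Mcl1 was the most abundant member tested at 204, followed by Tnfrsf1b at 154, Bcl2l11 at 89.5 and Bax at 86.3. Bak1 (68.4), Casp9 (67.9) and Tnfrsf1a (58.8) came next, and below them, still in the upper part of the order, lay Casp6 (36.7), Bcl2l1 (30.4) and Casp8 (29.2). At the low end stood Bmf at 1.5, Tnfrsf10b at 0.856, Bok at 0.728 and Cycs at 0.639 CPM per kilobase. The place of Cycs is uncertain, as reads shared with its pseudogenes may not have been counted on it. Thus the pair past the fold limit, Bok and Bmf, lies among the 4 least abundant members tested, and the abundant members changed by much smaller factors or were not called.

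**Figure D3:**
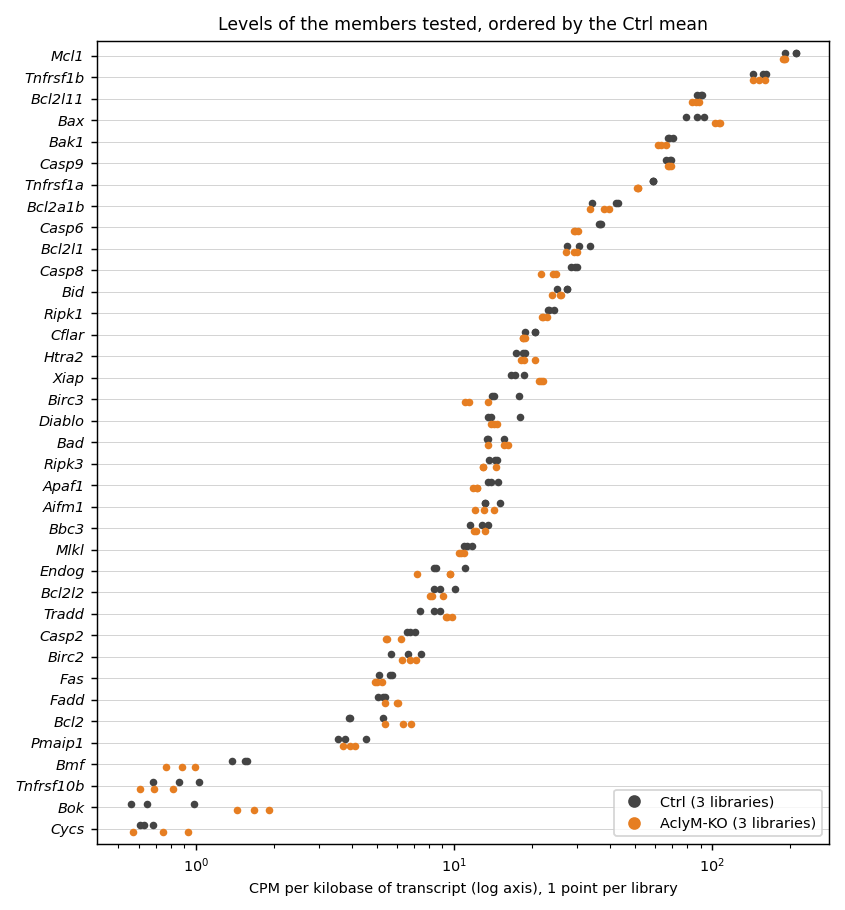
CPM per kilobase of transcript (log x axis) of the 37 members tested, 1 point per library, ordered by the mean of the 3 Ctrl libraries. Mcl1 stands at the top with a Ctrl mean of 204 and Cycs, whose count is uncertain because of its pseudogenes, at the bottom with 0.639. The AclyM-KO points lie clearly to the right of the Ctrl points for Bok and to the left for Bmf.

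The other genes of these routes came from a list of 85, of which 75 were tested. In AclyM-KO 15 of them were higher and 9 lower (32% called, beside 24.9% of all genes tested), with a median log2 fold change of 0.031. The count of those higher was 8 without AclyM-KO replicate 1 and 8 without AclyM-KO replicate 2. Bnip3, a BH3-like mitophagy receptor and hypoxia target, fell the most, from 280, 257 and 261 counts in Ctrl to 129, 125 and 117 in AclyM-KO (log2 fold change of -1.26, SE 0.103, adjusted p = 4.94e-07). Its fall was similar in size to that of Acly itself.

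The inflammatory caspases Casp4 and Casp1 rose by 0.39 and 0.19 on the log2 scale (edgeR adjusted p = 0.0012 and 0.0227). Gsdmd, the pore protein that inflammatory caspases cut, fell by 0.24 on the log2 scale, and Panx1, a channel that caspases open in dying cells, rose by 0.44.

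Of the ligands, 3 were tested, and 0 had an unadjusted p under 0.05 in edgeR, beside 4416 of all 12023 genes tested. Tnf was counted 127, 95 and 79 times in Ctrl and 118, 174 and 102 times in AclyM-KO (log2 fold change of 0.23, adjusted p = 0.386). Tnfsf10, encoding TRAIL, had 12 to 23 counts (log2 fold change of -0.60, 95% confidence interval -1.34 to 0.13), and Fasl, the ligand of Fas, 0 to 2. Of other receptors of the family, Tnfrsf12a, the TWEAK receptor, rose by 0.63 and the TRAIL decoy receptor Tnfrsf22 by 0.51 on the log2 scale (adjusted p = 0.011 and 0.00172).

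In the TNF receptor complex and NF-kB group, 3 of 26 genes were higher and 6 lower (34.6% called, beside 24.9% of all genes tested). Those lower included the ubiquitin editors Tnfaip3 (A20, log2 fold change of -0.31) and Cyld (-0.21), the linear ubiquitin ligase Rnf31 (-0.25), the adaptor Traf5 (-0.23) and the NF-kB subunit Nfkb1 (-0.19). Those higher included the ubiquitin-binding Optn (0.26) and Ikbkg (0.23), and Nfkb2 (0.19).

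Of 13 genes tested from p53 and its targets, 4 rose (30.8% called, beside 24.9% of all genes tested), and 8 lay above 0 and 5 below. Those that rose were Sesn2, a stress-induced regulator of mTORC1 (0.39), the AKT inhibitor Phlda3 (0.32), and the p53 antagonists Mdm2 (0.22) and Mdm4 (0.19). In necroptosis, Pgam5 rose by 0.32 and the adaptor Ticam1 fell by 0.25.

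**Figure D4:**
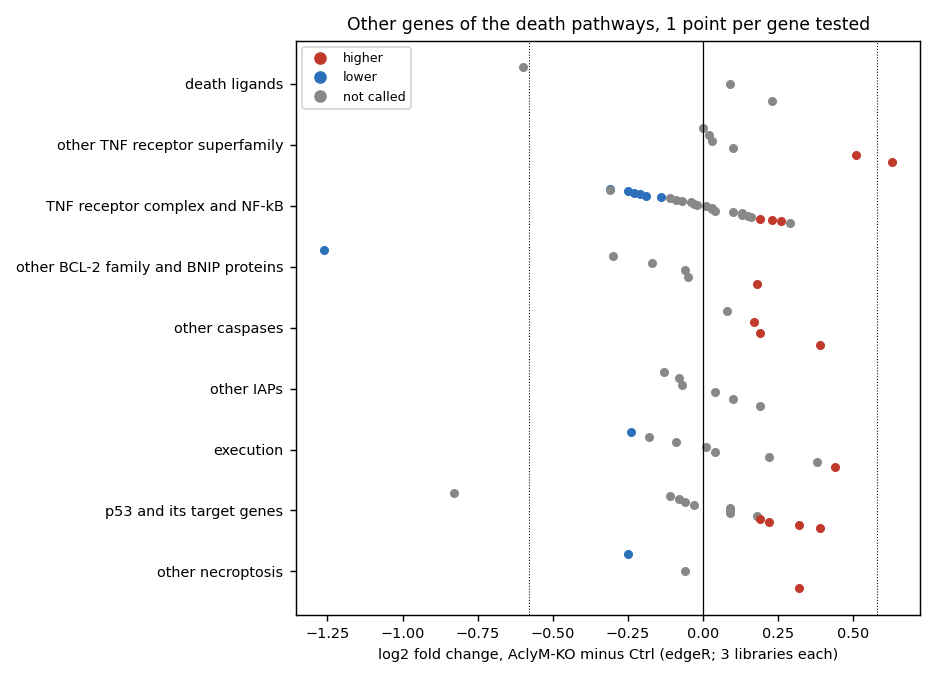
Log2 fold change (AclyM-KO minus Ctrl, x axis) of the 75 tested genes of the wider list, 1 point per gene, in 9 groups; red points were called higher, blue points lower and grey points not called, and dotted lines mark 0.58 in either direction. Bnip3 stands at the far left at -1.26. Of the 13 tested genes in the p53 group, the 4 called lie above 0, and 5 uncalled ones lie below 0.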

How the data were processed

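The authors sequenced strand-specific mRNA libraries and aligned the reads to mm10 with STAR 2.5.2b; the counting program is not given in the sources used here. The deposited values are raw read counts per RefSeq transcript (35745 rows), with no normalization. A read was counted on every isoform holding it, so the row with the highest total was kept for each of 24445 genes. Whether the counting used strand was not tested. The 117 rows without a gene (0.37% to 1.38% of counts in a library) were left out. Gene positions come from GENCODE M21 (GRCm38).

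The quasi-likelihood test of edgeR 4.0.16 (R 4.3.3) was fitted with genotype as its single term after filterByExpr and TMM scaling, and p-values were adjusted by Benjamini-Hochberg over 12023 genes. CPM values use TMM-scaled library sizes, SD is over 3 libraries, and intervals are 95% confidence intervals of the fit. The exact permutation test of 3 against 3 libraries cannot go below p = 0.1 and was not used for calls. The members and the gene lists were chosen with earlier results of these data known, and all members, Acly, 3 ligands and the called genes of the wider list, up to 20 by size of change, were eligible for naming; Nfkb2 was named after its values were seen. Deviations from the group means did not go together in same-numbered libraries (correlations of -0.065, 0.05 and -0.031, beside -0.076 to 0.11 for other pairs). With 3 libraries in a group this check is weak, and whether same-numbered libraries shared a preparation was not tested. Alternatives were DESeq2 1.42.0, limma-voom (limma 3.58.1), other scalings and low-count filters, other rows per gene, thinned libraries, a replicate block and leaving out each library. Fitting every transcript row and taking ratios within libraries were added after seeing the data. The procedure was tested on simulated data. Some values of the wider list are not reported here. The untreated libraries of the study were not analysed here.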

Additional observations from a re-analysis of the deposited data

How the results depend on the processing

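Of the 11 member calls, 9 held in all 6 fits that left out a library and all 11 other alternatives; the exceptions were Casp2 and Birc3. The 4 increases were called throughout, and the decreases numbered 5 to 7. With the replicate block, 4 members were called higher and 6 lower, Casp2 being lost (log2 fold change of -0.24, adjusted p = 0.0634), also with sums over transcript rows (0.0666), thinned libraries (0.0991) and DESeq2 (0.105). Same-numbered libraries did not deviate together, and over all genes the block moved the calls from 2996 to 2644. Leaving out 1 library at a time, Birc3 ranged from -0.46 to -0.24 and Casp2 from -0.31 to -0.21, and the genes of the wider list called higher numbered 8 to 14, against 15. Counts past the fold limit were 2 or 3, the latter with Bcl2, at 0.65 without Ctrl replicate 2, 0.58 without AclyM-KO replicate 3 and 0.73 with the row of lowest nonzero total. Estimates that changed sign were all uncalled. Without 1 library, Bbc3 ranged from -0.09 to 0.02, Pmaip1 from -0.09 to 0.10, Diablo from -0.17 to 0.05, Endog from -0.16 to 0.06, Birc2 from -0.08 to 0.12 and Tnfrsf1b from -0.08 to 0.01. Bcl2l11 came to 0.06 on its row of lowest nonzero total. The cause of these shifts was not tested. Low counts limit Bok, Cycs, Tnfrsf10b and Bmf most, and the count of Cycs is also uncertain because of its pseudogenes.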
